A study of Mus musculus with 3 samples.

Results

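The genes of 9 secreted proteins of the serine protease system were followed in cells of the mouse tooth root, namely the proteases HTRA1, HTRA3, PRSS35, PRSS23, PLAT and PLAU and the serpins SERPINE2, SERPINI1 and SERPINF1. The set holds 9 of the 21446 genes that were listed in all 3 libraries, and all 9 were found. They were chosen by name, with earlier results of these libraries known, so the levels below are descriptions and carry no test. The cells came from mandibular molars of *Pthrp-mCherry* knock-in mice, a reporter line in which a red fluorescent protein reads out the gene for parathyroid hormone-related protein, and were sorted for mCherry after tissue of several mandibles had been pooled. All 3 libraries share the reporter allele, and none received a treatment. One library was made at postnatal day 15 (P15), one at day 25 (P25) and one at 8 weeks, when acellular cementum is complete, when cellular cementum begins and when the root is mature. With 1 library per age, no difference between ages has a replicate check. The intervals given are exact 95% intervals that cover counting error only, and age, animals, sort and library preparation cannot be told apart. The P25 matrix was also made with another software version and a larger gene list, which cannot be told apart from its age.

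Serine proteases cut proteins through a reactive serine, and serpins stop many of them by acting as a bait that traps the enzyme. In connective tissue the best known branch is the plasminogen system, in which the activators PLAT and PLAU turn plasminogen into plasmin, a protease that digests fibrin and matrix. HtrA proteases cut matrix proteins and growth factor carriers. Cementum is the mineralized layer that covers the tooth root and holds the fibers of the periodontal ligament, and its matrix is laid down and remodelled by cementoblasts and the fibroblasts next to them.

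Cells were grouped by the unique molecular identifiers (UMIs, counted RNA molecules) of marker genes. A cell passed a gate with at least 3 UMIs of the marker (2 for *Ptprc*) and a rate of at least 10% of the rate that only 0.5% of all cells exceeded. *Ibsp* encodes bone sialoprotein of mineralizing cells, *Ifitm5* a membrane protein of bone-forming cells, *Hand2* a transcription factor of jaw mesenchyme, *Mmp3* a matrix metalloproteinase, *Rgs5* a regulator found in vessel-wall cells, *Pappa2* a protease of growth factor binding proteins, and *Ptprc* the leukocyte antigen CD45. *Epcam* was added as a gate for epithelium. In order of age, the *Ibsp* gate took 838, 1087 and 839 cells and the *Ifitm5* gate 574, 785 and 264. *Hand2* gave 208, 505 and 320 cells, *Mmp3* only 51, 24 and 31. *Rgs5* (214, 17 and 30 cells), *Pappa2* (575, 31 and 13) and *Ptprc* (740, 186 and 18) took far fewer cells after P15, and a level resting on fewer than 20 cells is marked as such below and entered no count. Most cells, 9217, 5821 and 3627, passed no gate and are called ungated.

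The libraries held 12926, 8971 and 5192 cells, with a median of 8712.5 to 15834 UMIs per cell, and the 8-week library was the shallowest. Between 13 and 26 cell barcodes were shared by any pair of libraries. Levels are UMIs of the gene per 1000000 UMIs of the gate (CPM), and a comparison was counted when the levels differed at least 2-fold on the log2(CPM + 1) scale and the mean level over the libraries compared reached 20 CPM in one of the gates (for 2 ages, when one level reached it). The gates were checked against markers other than the gating gene. The *Hand2* gate was highest for its 3 markers in 9 of 9 marker and library pairs, the *Ifitm5* gate in 11 of 12 and the *Ptprc* gate in 18 of 18. The *Ibsp* gate was highest in 3 of 9 and first or second in 9 of 9, behind *Ifitm5*-gated cells. The *Rgs5* gate went against its label at 8 weeks. Its 4 vessel-wall markers summed to 1691 CPM at P15 but 54.3 CPM at 8 weeks, where *Kcnj8* was at 0. In the *Mmp3* gate the summed level of *Il1rl1* and *Dio2* fell in the same way, from 5098 to 898 and 251 CPM. The *Pappa2* gate was highest for its markers in 3 of 6 pairs. Its *Col13a1* level was 160 CPM at P15 and 12.3 CPM at P25, where the *Hand2* marker list summed to 4123 CPM in it against 129 CPM for its own list (539 and 256 CPM at P15). For these 3 gates the ages are therefore set side by side as cells of a marker, not as one cell type over time.

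Free RNA in the droplets gives UMIs in cells that do not make a gene. Of 7 genes of mesenchymal cells, such as *Col1a1*, *Postn* and *Wif1*, the *Ptprc*-gated cells held a median of 15.6, 11.6 and 2.35% of the level of all cells in the order P15, P25 and 8 weeks. The background was thus lowest in the 8-week library, where it rests on 18 cells. Of the 9 members, 8 sat in *Ptprc*-gated cells at 9.59 to 24.8% of their all-cell level at P15, within or near the range of the reference genes (4.51 to 19.2%). The exception was *Plau*, at 551%. Counting only P15 and P25, where both gates had enough cells (P15 alone for *Rgs5*), 34 of 54 member and gate pairs lay at least 2-fold above the *Ptprc*-gated level. These were 6 of 7 members tested in the *Ibsp* gate, where 14.4% of all genes tested did so, and 5 of 7 in *Ifitm5* (13.5%). They were 4 of 6 in *Hand2* (15.6%), 6 of 7 in *Mmp3* (14.4%), 6 of 6 in *Rgs5* (25.6%) and 7 of 7 in *Pappa2* (15.2%). Members not tested in a gate had too few UMIs there. *Htra3*, *Prss35*, *Prss23*, *Plat* and *Serpini1* were under 20 CPM in *Ptprc*-gated cells, so they could be tested only through the mesenchymal gate. *Serpinf1* cleared the background in all 6 gates. *Plau* was tested in the *Mmp3* gate alone and did not clear the *Ptprc*-gated level, which is no background for it. Doublets of 2 cell types were removed only where a cell passed *Ptprc* or *Epcam* with another gate, and the part of other doublets in cells that pass 2 gates was not tested.

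**Figure D1:**
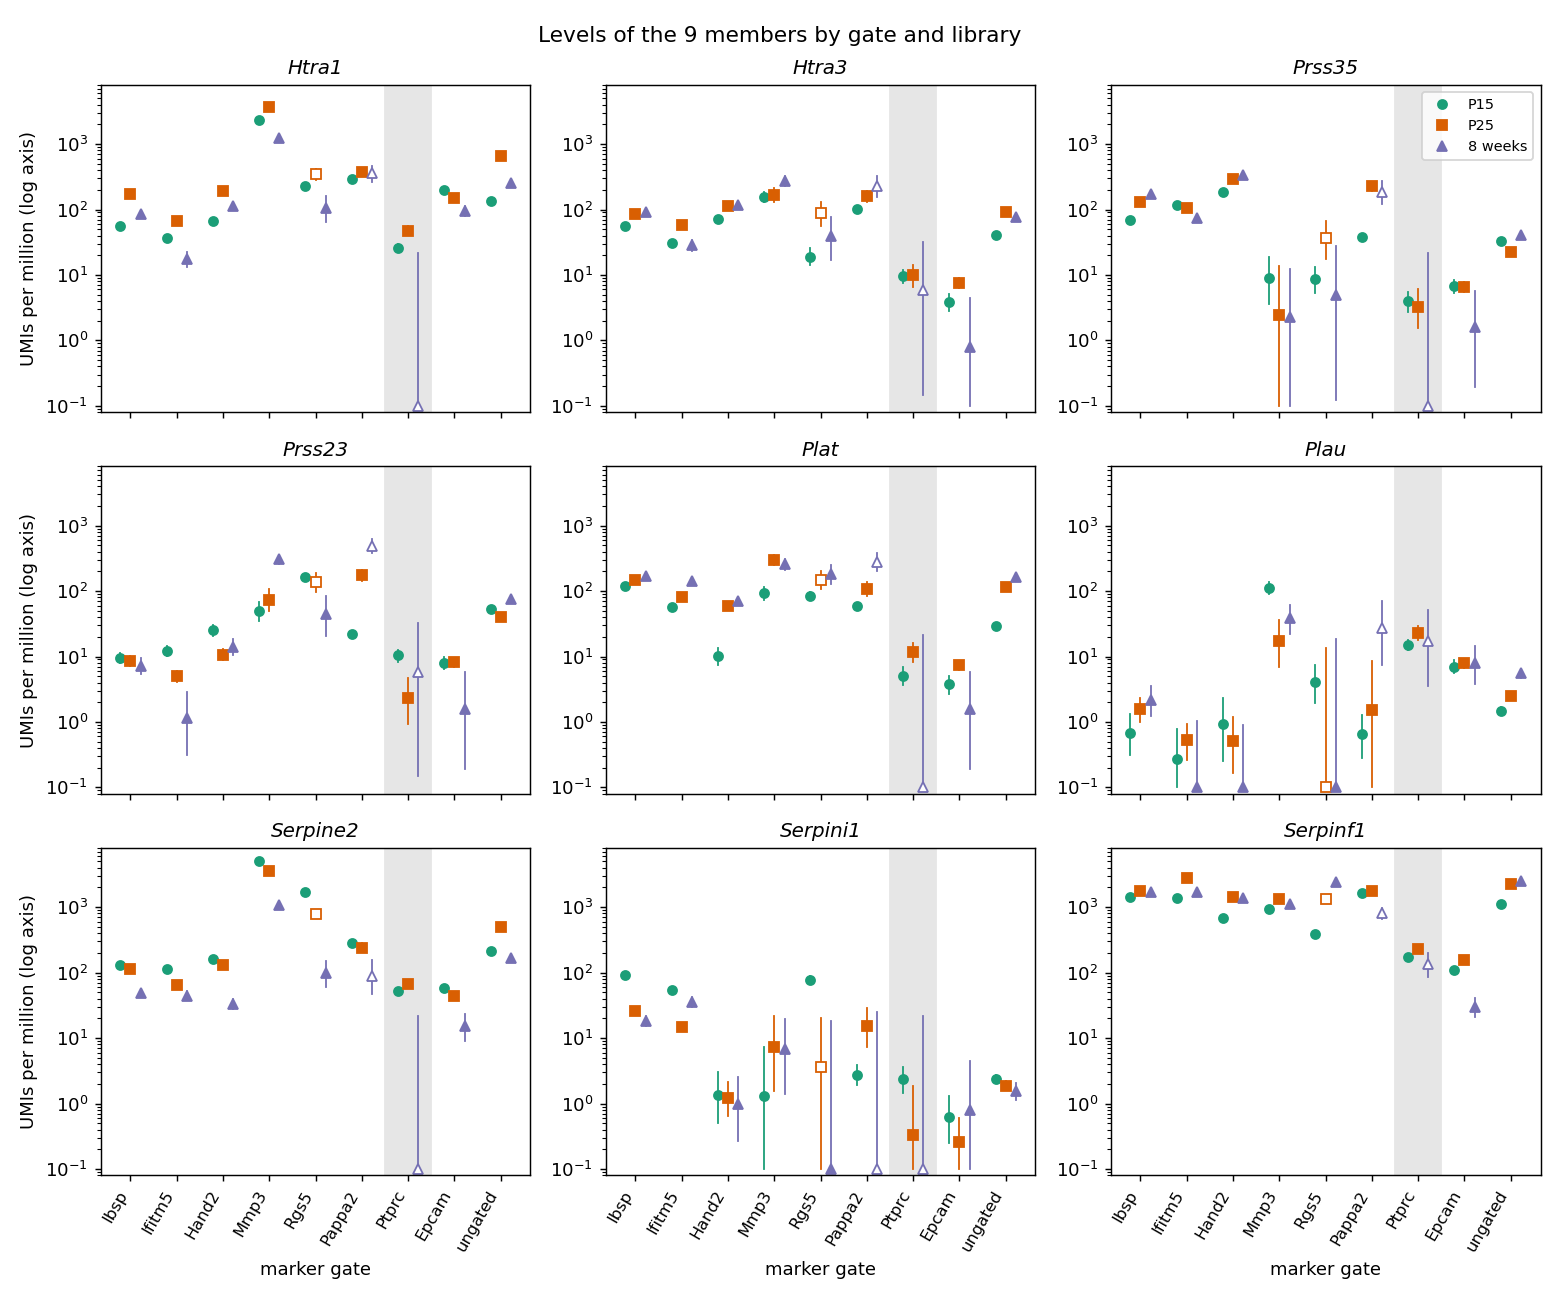
Level of each member (CPM, log axis) in each marker gate (x axis), with P15 as circles, P25 as squares and 8 weeks as triangles; bars are exact 95% Poisson intervals, open symbols rest on fewer than 20 cells, values under 0.1 are drawn at 0.1, and the *Ptprc* gate is shaded as background. *Htra1* and *Serpine2* peak in the *Mmp3* gate, *Serpini1* in the *Ibsp*, *Ifitm5* and P15 *Rgs5* gates. *Serpinf1* is high in the mesenchymal gates, at P15 least so in the *Rgs5* gate.

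*Htra1* (chr7:130936111-130985660, plus strand, GRCm38) encodes a secreted protease that cuts matrix proteoglycans and fibronectin and dampens TGF-beta signalling. Its highest levels lay in the *Mmp3* gate, at 2369, 3702 and 1234 CPM at P15, P25 and 8 weeks, which was 17.6, 5.58 and 4.78 times the level of ungated cells. *Mmp3*-gated cells came first in all 3 libraries and its interval overlapped with that of no other gate. In *Ibsp*-gated cells the levels were 56.2, 172 and 85.0 CPM, and in *Ifitm5*-gated cells 36.7, 67.9 and 17.3 CPM. The *Ifitm5* gate lay less than 2-fold above the *Ptprc*-gated level of 25.7 and 47.8 CPM at P15 and P25. The *Hand2* gate, at 66.6, 193 and 112 CPM, stood close to the *Ibsp* gate. *Pappa2*-gated cells held 296 and 372 CPM (and 359 in 13 cells at 8 weeks). Epithelial *Epcam*-gated cells held 197, 152 and 95.2 CPM against 25.7 and 47.8 CPM in *Ptprc*-gated cells at P15 and P25. After thinning each cell to 3000 UMIs, 40.9, 29.7 and 30% of *Epcam*-gated cells had an *Htra1* UMI, against 3.98 and 4.32% of *Ptprc*-gated cells at P15 and P25; without thinning the *Epcam* shares were 89.8, 87.1 and 76.0% and the *Ptprc* shares 13.2 and 17.2%. The epithelial level thus exceeded the *Ptprc*-gated level in both libraries. At 8 weeks no UMI was seen in the 18 *Ptprc*-gated cells, and 3 counts, the limit used here for a count of 0, would be 17.4 CPM. The gene overlaps *Fgfr2* on the opposite strand.

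In the *Ibsp*, *Ifitm5*, *Hand2* and *Mmp3* gates and in ungated cells *Htra1* was highest at P25, whereas in *Epcam*-gated cells it was highest at P15. The level in *Ibsp*-gated cells was 3.06 times that at P15 (interval 2.82 to 3.32) and then fell 2.02-fold to 8 weeks (1.85 to 2.21). Without the cells that also passed *Hand2*, that fall stayed short of 2-fold. In *Hand2*-gated cells the first step was 2.90-fold (2.56 to 3.29), and in ungated cells 4.94-fold (4.86 to 5.03). The *Ptprc*-gated background also rose between P15 and P25, from 25.7 to 47.8 CPM, and the part of free RNA in the step was not tested.

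*Htra3* (chr5:35652023-35679782, minus strand) encodes a close relative of HTRA1 with a similar range of substrates. It was also highest in the *Mmp3* gate in each library, at lower levels than *Htra1* and at P25 next to the *Pappa2* gate (165 and 160 CPM). *Ibsp*-gated cells held 56.0, 85.7 and 91.3 CPM, *Hand2*-gated cells 70.5, 112 and 119, *Mmp3*-gated cells 156, 165 and 276, and *Ifitm5*-gated cells 30.6, 57.8 and 28.6. In ungated cells the level was 40.9, 93.0 and 78.1 CPM. *Ptprc*-gated cells held 9.55 and 9.81 CPM at P15 and P25. At P15 the *Rgs5* gate, at 19.1 CPM, was the mesenchymal gate under the 2-fold background mark. Its ratio of 8 weeks to P15 was 1.63 in the *Ibsp* gate (1.47 to 1.81) and 1.68 in the *Hand2* gate (1.46 to 1.95), both short of 2-fold.

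*Prss35* (chr9:86743649-86758443, plus strand) encodes a protein with a protease fold whose catalytic serine is replaced, and its function in matrix is little known. *Hand2*-gated cells held the most in every library, at 188, 297 and 342 CPM. *Ibsp*-gated cells followed an upward course of 70.1, 129 and 175 CPM, while *Ifitm5*-gated cells went from 117 to 106 and 73.8 CPM. The 2 gates therefore swapped places between P15 and P25. However, *Ibsp*-gated cells that did not pass *Hand2* held 102 CPM at P25 and 158 CPM at 8 weeks. The *Pappa2* gate held 38.0 and 228 CPM (186 in 13 cells). In the *Mmp3* gate it was almost absent, with 7, 1 and 1 UMIs (9.11, 2.47 and 2.24 CPM), and ungated cells held 32.8, 22.4 and 41.4 CPM. *Ptprc*-gated cells held 3.96 and 3.27 CPM.

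*Prss23* (chr7:89507783-89527187, minus strand, with *Prss23os* on the other strand) encodes a secreted trypsin-like protease known from ovary and vessel endothelium. It was low in the mineralizing gates, at 9.44, 8.44 and 7.24 CPM in *Ibsp*-gated and 12.2, 4.98 and 1.13 CPM in *Ifitm5*-gated cells, against 10.4 and 2.29 CPM in *Ptprc*-gated cells. Neither gate cleared the background at P15. The *Rgs5* gate held 163 CPM at P15 (44.4 at 8 weeks, from 9 UMIs), and the *Mmp3* gate 49.4, 74.0 and 305 CPM. *Pappa2*-gated cells held 21.8 and 175 CPM (490 in 13 cells at 8 weeks), in cells whose markers differed between the ages. Ungated cells held 83.8, 83.8 and 86.6% of its UMIs. Within them, the 149 cells that passed a *Pecam1* gate (endothelium) at P15 stood at 168 CPM.

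*Plat* (chr8:22757727-22782844, plus strand) encodes tissue plasminogen activator, which works best on plasminogen bound to fibrin. Its level followed the order of the ages in each mesenchymal gate other than *Mmp3*. *Ibsp*-gated cells held 120, 147 and 171 CPM, *Ifitm5*-gated cells 57.4, 81.6 and 145, *Hand2*-gated cells 10.1, 58.4 and 69.3, and ungated cells 29.6, 114 and 162. *Mmp3*-gated cells held 92.4, 301 and 258 CPM. *Ptprc*-gated cells held 5.13 and 11.8 CPM at P15 and P25 and no UMI in 18 cells at 8 weeks. The level over all cells was 37.6, 94.4 and 151 CPM, a 4.0-fold difference between the first and last library (3.87 to 4.14).

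*Plau* (chr14:20836660-20843385, plus strand) encodes urokinase, the activator that acts at cell surfaces through its receptor. It was the rarest member, at 2.71, 3.16 and 4.57 CPM over all cells. *Mmp3*-gated cells held 112, 17.3 and 38.1 CPM, from 86, 7 and 17 UMIs, and *Ptprc*-gated cells 14.9, 23.2 and 17.4 CPM, the last from 3 UMIs in 18 cells. *Epcam*-gated cells held 6.97, 7.90 and 7.94 CPM. In the *Ibsp*, *Ifitm5* and *Hand2* gates no level exceeded 2.15 CPM. In thinned cells a *Plau* UMI was found in 11.6, 8.33 and 6.45% of *Mmp3*-gated and in 1.77, 7.57 and, of 15 cells, 6.67% of *Ptprc*-gated cells (17.6, 16.7 and 25.8%, and 8.65, 22.6 and 11.1%, without thinning). The *Ptprc* gate is no background for this gene, since its level there was 551% of that of all cells at P15 (interval 459.5 to 654.9%) and 734% at P25.

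*Serpine2* (chr1:79794197-79861180, minus strand) encodes protease nexin-1, a matrix-bound inhibitor of thrombin, urokinase and tissue plasminogen activator. Like *Htra1*, it was highest in the *Mmp3* gate, at 5116, 3616 and 1086 CPM, and the order of these levels followed that of the ages. The *Rgs5* gate held 1690 CPM in the first library, 796 in the 17 cells of the second and 98.7 in the third. *Pappa2*-gated cells held 280 and 240 CPM, and ungated cells 217, 490 and 165. *Ibsp*-gated cells held 131, 115 and 48.3 CPM, *Ifitm5*-gated cells 114, 64.4 and 44.4, and *Hand2*-gated cells 164, 133 and 33.3. None of these last 3 gates lay 2-fold above the *Ptprc*-gated level, 53.0 and 66.7 CPM, in both P15 and P25. At 8 weeks the 18 *Ptprc*-gated cells had no UMI (3 counts would be 17.4 CPM). From P15 to P25 the *Ptprc*-gated level rose while the levels in these 3 gates fell, and the part of free RNA in them was not tested.

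*Serpini1* (chr3:75557547-75643495, plus strand) encodes neuroserpin, best known as the inhibitor of tissue plasminogen activator made by neurons. Its levels were 92.8, 25.5 and 18.4 CPM in *Ibsp*-gated cells and 53.7, 14.9 and 35.6 CPM in *Ifitm5*-gated cells. The *Hand2* gate held 1.37, 1.23 and 0.99 CPM and ungated cells 2.40, 1.88 and 1.56, near the 2.33 and 0.33 CPM of *Ptprc*-gated cells. Together these 2 gates held most of its UMIs, of which 50.8, 43.1 and 43.4% lay in the *Ibsp* gate and 24.9, 34.3 and 39.9% in the *Ifitm5* gate, in order of age. The *Rgs5* gate held 76.5 CPM at P15, from 188 UMIs, whereas the 17 cells of P25 gave 1 UMI and the 30 of 8 weeks none (3 counts would be 14.8 CPM). After thinning, 20.6, 5.38 and 3.43% of *Ibsp*-gated cells had a UMI against 1.18% of *Ptprc*-gated cells at P15 (50.7, 16.5 and 9.77%, and 2.43%, without thinning). The gene model *Gm37672* overlaps *Serpini1* on the same strand. The P25 counts were made with a larger gene list, and its part in the *Serpini1* levels was not tested.

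*Serpinf1* (chr11:75409769-75422701, minus strand) encodes PEDF, a serpin that inhibits no protease, binds collagen, restrains vessel growth and is needed for normal bone mineralization. It was high in the mesenchymal gates, at P15 least so in the *Rgs5* gate (395 CPM). *Ibsp*-gated cells held 1416, 1774 and 1720 CPM, *Ifitm5*-gated cells 1369, 2804 and 1691, *Mmp3*-gated cells 947, 1345 and 1130, and ungated cells 1116, 2269 and 2519. The *Hand2* gate went from 682 to 1408 and 1385 CPM. *Ptprc*-gated cells held 174, 230 and, in 18 cells, 133 CPM, and 96.1, 98.8 and 98.6% of thinned *Ibsp*-gated cells had a UMI, against 23.5, 29.2 and, of 15 cells, 33.3% of thinned *Ptprc*-gated cells (99.3, 99.4 and 98.5%, and 48.1, 59.7 and 44.4%, without thinning).

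The study asked how cementoblasts of acellular and cellular cementum differ, and *Ibsp* and *Ifitm5* are among the genes by which it named their clusters. Its spatial data at P25, a different measure, list *Htra1* among the genes higher in cementoblasts of acellular cementum. Between the *Ibsp* and *Ifitm5* gates none of the 7 members with enough UMIs differed at least 2-fold in the same direction in all 3 libraries, against 1.2% of all genes higher and 1.48% lower. The nearest were *Htra1*, with log2 ratios of 0.60, 1.33 and 2.24 at P15, P25 and 8 weeks (mean 1.39 ± 0.82, SD over 3 libraries), and *Htra3*, with 0.85, 0.56 and 1.64 (1.02 ± 0.56). *Htra1* passed in the libraries of P25 and 8 weeks, so that without P15 the count was 1. In the *Ifitm5* gate *Htra1* lay less than 2-fold above the *Ptprc*-gated level at P15 and P25. The part of free RNA in its ratios was not tested. The median gene lay 0.17 higher in the *Ibsp* gate on this scale, and both means stand above that shift. *Serpinf1* had 0.05, -0.66 and 0.02. *Prss35* and *Serpini1* changed sign between libraries, the first from -0.73 at P15 to 1.23 at 8 weeks, the second from 0.78 to -0.92. The count higher was also 1 with the gate at 5% and 2 (*Plat* and *Serpini1*) when cells of several mesenchymal gates were left out. By precedence the *Ifitm5* gate otherwise takes those that pass *Ifitm5*. The *Ibsp* gate takes those that pass *Ibsp* without *Ifitm5*, among them 23, 334 and 232 cells that also pass *Hand2*.

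The reading changed when the gates were split by their overlap, into *Ifitm5*-gated cells with and without *Ibsp*, which was chosen after the data had been seen. *Ifitm5*-gated cells that also passed the *Ibsp* gate (350, 317 and 163 cells) held 98.1, 43.5 and 65.7 CPM of *Serpini1*, and those that did not (224, 468 and 101 cells) held 1.76, 1.68 and 0.61 CPM. The ratio was 55.8 at P15 (29.2 to 123) and 25.9 at P25 (17.1 to 41.1), and at 8 weeks the lower level rested on 1 UMI. Thinned shares were 26.1, 12.3 and 20% with *Ibsp* and 0 of 222, 0 of 462 and 0 of 99 cells without. *Plat* followed the same line, at 97.3, 170 and 220 CPM with *Ibsp* and 10.7, 41.2 and 56.4 CPM without (9.05-fold, 4.12-fold and 3.90-fold). These 2 were the only members of 7 higher in all 3 libraries, where 2.33% of all genes were, and no member was lower, where 0.891% were. *Serpini1* passed the filter through the cells with *Ibsp* alone, and in a split chosen after seeing the data the count is a description. The tissue plasminogen activator gene and the neuroserpin gene were thus both higher in the *Ifitm5*-gated cells that also carried *Ibsp*. *Htra1*, *Serpine2* and *Htra3* changed sign between libraries in this comparison.

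The counterpart comparison, *Ibsp*-gated cells that lacked the *Hand2* gate (815, 753 and 607 cells) against *Ifitm5*-gated cells that lacked the *Ibsp* gate, gave the same 2 members higher and none lower, where 5.17% and 2.36% of all genes were. *Serpini1* stood at 95.7, 35.3 and 24.5 CPM in the former, and *Plat* at 123, 168 and 194 CPM. Here too *Serpini1* passed the filter through the former alone. *Serpinf1* was lower in the former in each library, with log2 ratios of -0.04, -0.77 and -0.30, none of them reaching 2-fold.

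*Hand2* marked a further division among *Ibsp*-gated cells. The cells that passed both gates numbered 23, 334 and 232. Of the 7 members tested, *Serpini1*, *Htra1* and *Serpine2* were lower in them in all 3 libraries, where 0.822% of all genes were, and none was higher, where 0.226% were. *Serpini1* stood at 7.07, 5.88 and 6.04 CPM with *Hand2* against 95.7, 35.3 and 24.5 without. It passed the filter through the cells without *Hand2* alone, and its P15 level with *Hand2* rested on 3 UMIs among 424583. *Htra1* stood at 11.8, 88.5 and 25.8 CPM with *Hand2* and at 57.7, 214 and 115 without. For *Serpine2* the levels were 28.3, 64.7 and 25 CPM with and 135, 140 and 59.9 without. In cells with *Hand2*, *Htra1* at P15 lay under the *Ptprc*-gated level of 25.7 CPM. That P15 sum held 23 cells and 424583 UMIs, too few counts to set these levels apart. *Serpine2* in cells with *Hand2* lay under the *Ptprc*-gated 53.0 CPM at P15 and 66.7 CPM at P25. *Prss35* went the other way in each library, at 193, 183 and 208 CPM with *Hand2* and 66, 102 and 158 without, but reached 2-fold only at P15. *Htra3* had log2 ratios of -1.11, 0.10 and -0.04 and *Serpinf1* of -0.19, -0.30 and -0.19.

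Cells with *Hand2* and no *Ibsp* or *Ifitm5* gate extended this order for *Serpini1*, but not for *Htra1* or *Serpine2*. Against *Ibsp*-gated cells without *Hand2*, they were higher for *Prss35* in all 3 libraries (2.85-fold, 2.93-fold and 2.16-fold), where 1.99% of all genes were. They were lower for *Plat* and *Serpini1*, where 2.34% were, and *Serpini1* passed the filter through the *Ibsp*-gated cells alone. *Serpini1* differed most, with log2 ratios of -5.35, -4.03 and -3.68, and *Plat* had -3.49, -1.51 and -1.47. *Htra1* differed by 0.20, -0.15 and -0.03, so it was near equal in the *Hand2* gate and in *Ibsp*-gated cells without *Hand2*, and lower in cells with both. *Serpine2*, at 164, 133 and 33.3 CPM in the *Hand2* gate, was also lower in cells with both.

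**Figure D2:**
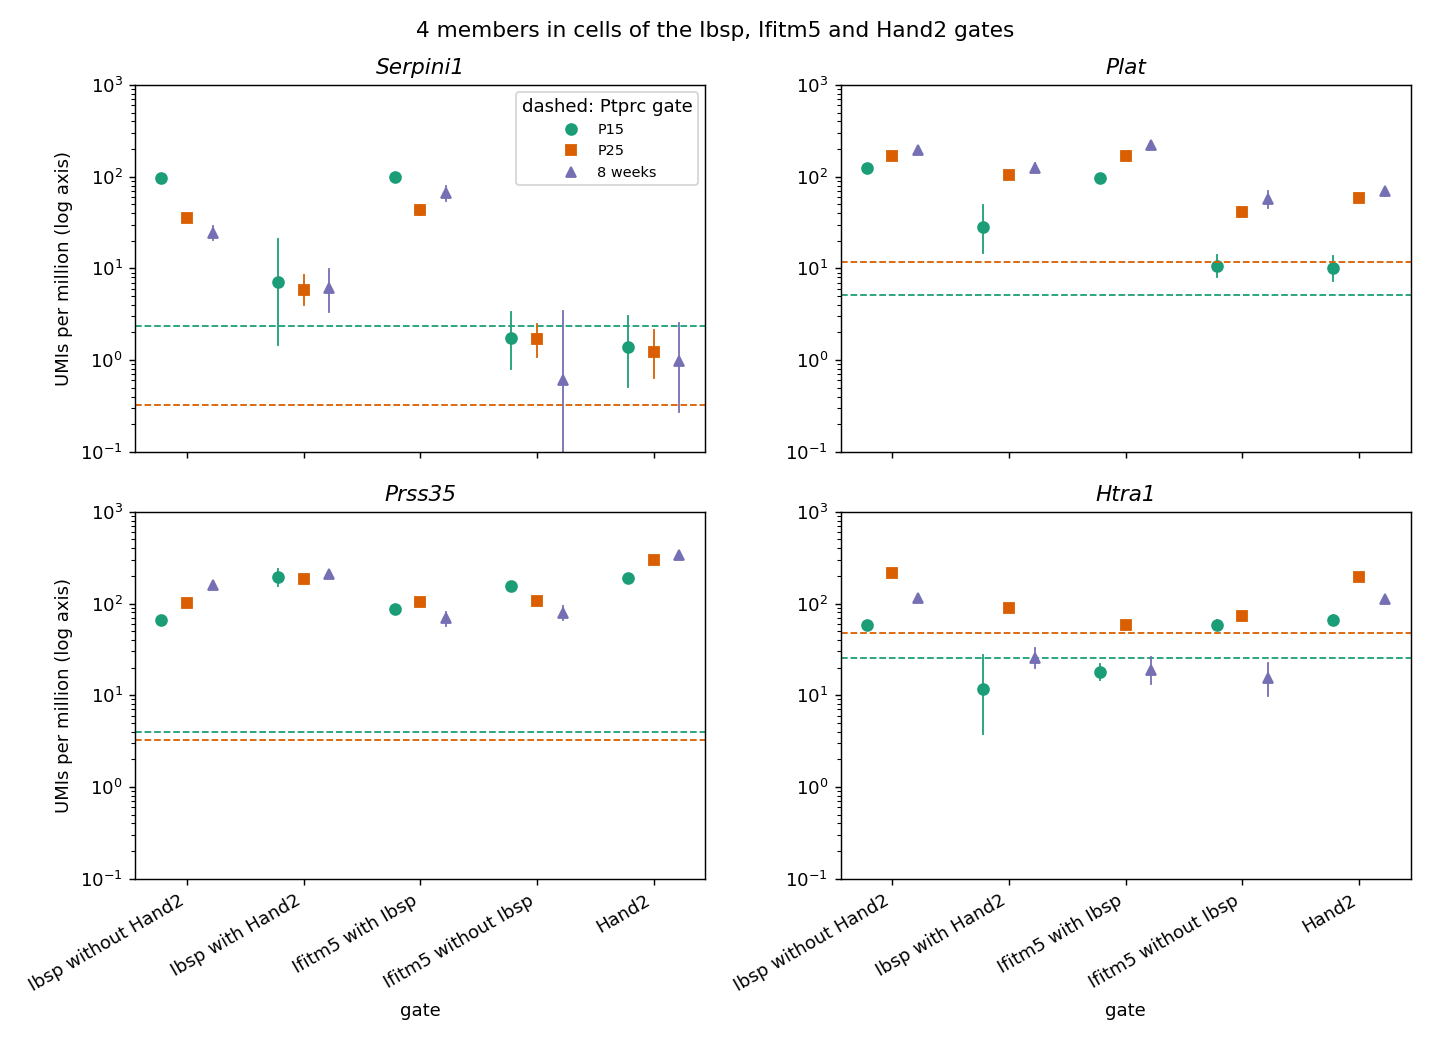
Levels of *Serpini1*, *Plat*, *Prss35* and *Htra1* (CPM, log axis) in cells split by their *Ibsp*, *Ifitm5* and *Hand2* gates (x axis), with P15 as circles, P25 as squares and 8 weeks as triangles; bars are exact 95% Poisson intervals and dashed lines the *Ptprc*-gated level at P15 and P25. *Serpini1* and *Plat* are high in both groups with *Ibsp* and no *Hand2* gate or with *Ibsp* and *Ifitm5*. *Serpini1* falls to about 1 in *Ifitm5*-gated cells without *Ibsp*, and *Prss35* is highest in the groups that pass *Hand2*, with or without *Ibsp*.

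The *Mmp3* gate was set against ungated cells. *Htra1*, *Plau* and *Serpine2* were higher in all 3 libraries, where 3.66% of all genes were, and *Prss35* was lower, where 3.37% were, among 8 members tested. For *Serpine2* the ratio was 23.6, 7.38 and 6.60, and for *Plau* 76.2, 6.87 and 6.84. *Plau* passed the filter through the mean of the *Mmp3* gate alone, and at P25 its 17.3 CPM there rested on 7 UMIs. *Prss35* passed it through the ungated cells alone. *Htra3* and *Plat* were also higher in each library, by log2 ratios of 1.91, 0.82 and 1.81 and of 1.61, 1.40 and 0.66, but not 2-fold throughout. *Serpinf1* stood at 0.85, 0.59 and 0.45 times the ungated level.

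Although *Mmp3*-gated cells had the highest levels, few cells passed that gate, and they held 6.88, 2.11 and 5.89% of the *Htra1* UMIs. A further division, of ungated cells by *Itgbl1*, was added after the values had been seen. *Itgbl1* encodes an integrin-like matrix protein, and the study's own marker lists for one of its cell groups, drawn up on these libraries, name it beside *Htra1* and *Serpine2*, so the count below is not independent evidence. The gate took 912, 1517 and 372 cells, and these held 26.1, 70.7 and 40.8% of all *Htra1* UMIs and 23.3, 68.4 and 43.5% of all *Serpine2* UMIs. *Htra1* stood at 436, 1612 and 825 CPM in them and *Serpine2* at 634, 1134 and 560. With *Prss23* (70.3, 59.6 and 152 CPM) these were the 3 members higher than in the ungated cells that passed none of the 4 added gates, where 2.16% of all genes were. *Prss35* was lower, at 10.5, 8.02 and 9.32 CPM, where 2.44% were, and passed the filter through the other cells alone.

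**Figure D3:**
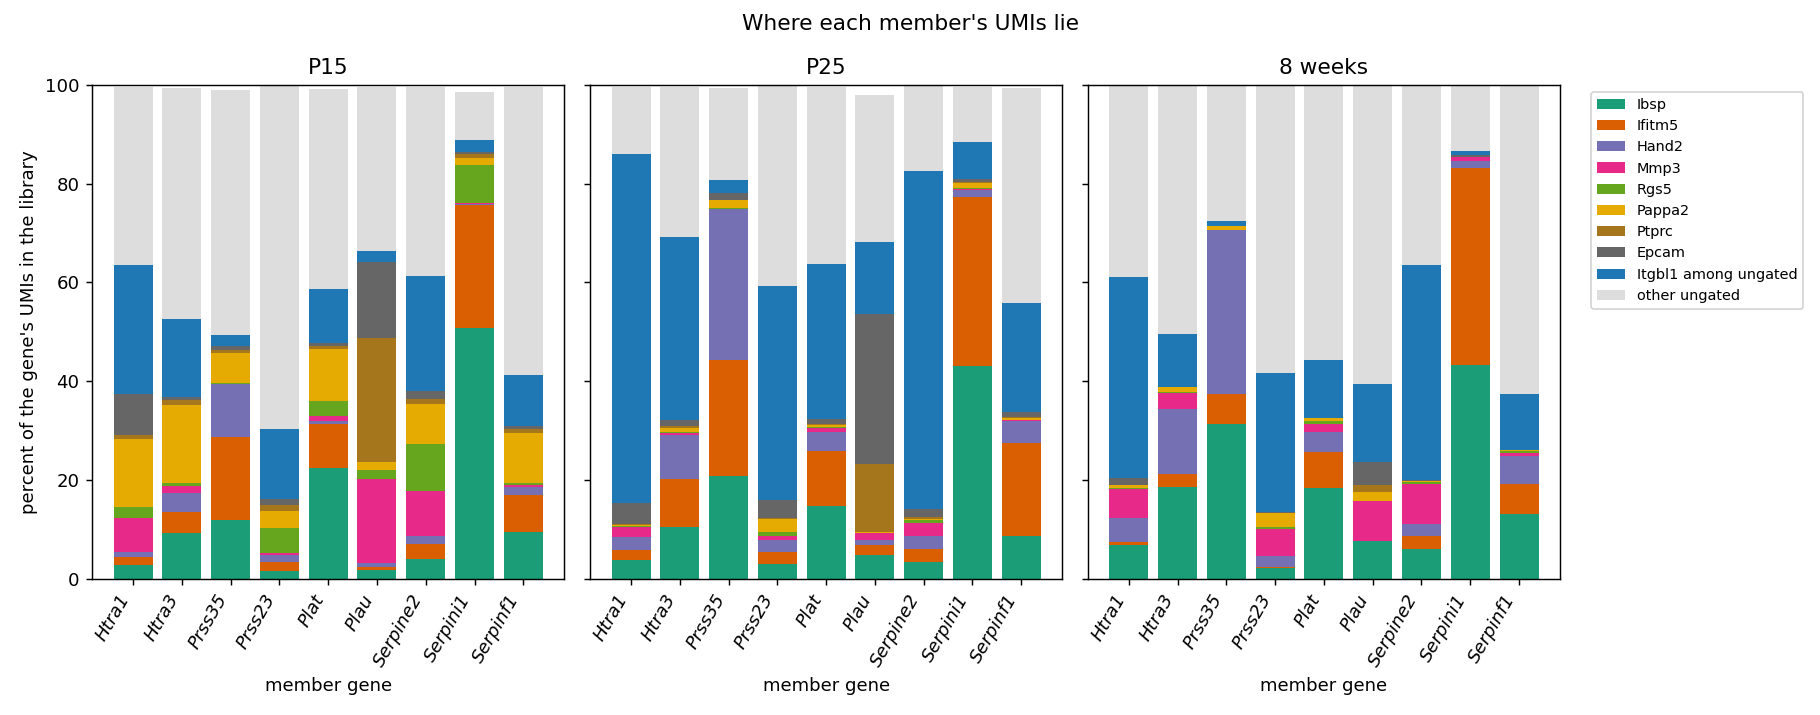
Percent of each member's UMIs in a library (y axis, stacked from 0 to 100) that lay in each gate, with 1 panel per age and 1 bar per member; ungated cells are split into *Itgbl1*-gated cells and the others, and bars short of 100 reflect cells left out for passing the *Ptprc* or *Epcam* gate together with another. The *Ibsp* and *Ifitm5* gates hold most *Serpini1* UMIs, and *Itgbl1*-gated cells hold 70.7% of the *Htra1* and 68.4% of the *Serpine2* UMIs at P25.

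From P15 to 8 weeks, 9 member and gate pairs were at least 2-fold higher and 11 at least 2-fold lower among 35 with enough UMIs. With a minimum of 10 cells, which admits the 13 *Pappa2*-gated cells of 8 weeks, the higher pairs were 14. With the gate at 20% the lower pairs were 7. The *Mmp3* and *Rgs5* gates, whose markers fell with age, supplied 11 of these 20. In the *Ibsp*, *Ifitm5* and *Hand2* gates alone, 4 of 21 pairs were higher and 5 lower. Counted pairs that reached 20 CPM at a single age could be counted only as higher at that age. They were *Serpini1* in the *Ibsp* gate, *Htra1* in *Ifitm5*, *Plat* in *Hand2*, and *Htra3* and *Serpini1* in *Rgs5*. In the *Ibsp* gate *Prss35* was higher (2.48% of all genes were) and *Serpine2* and *Serpini1* lower (2.73%). The *Prss35* ratio was 2.49 (2.29 to 2.72). *Serpini1* fell 5.05-fold (4.23 to 6.07), most of it before P25, where it was already 3.64-fold below P15 (3.24 to 4.09). Cells of this gate without *Hand2* numbered 815 of 838, 753 of 1087 and 607 of 839 and held 95.7, 35.3 and 24.5 CPM of *Serpini1*. The same members were counted in them, and the part of the cell mix in the fall was not tested. *Serpine2* fell 2.72-fold (2.42 to 3.05). In *Ifitm5*-gated cells *Plat* was higher, by 2.52-fold (2.24 to 2.83), where 2.57% of all genes were, and *Htra1* and *Serpine2* were lower, where 3.5% were. *Htra1* there lay less than 2-fold above the *Ptprc*-gated level at P15, and the part of free RNA in its fall was not tested. In the *Hand2* gate *Plat* was 6.88 times higher (5.0 to 9.69) and *Serpinf1* 2.03 times (1.94 to 2.12), where 5.34% of all genes were. The *Plat* rise started at 10.1 CPM, less than 2-fold above the *Ptprc*-gated 5.13 CPM at P15. In *Hand2*-gated cells *Serpine2* fell 4.93-fold (4.09 to 5.97), where 3.36% of all genes were lower. *Serpine2* was thus the member that was lower in each of the 3 gates. Its *Ptprc*-gated level was 53.0 CPM at P15 and 66.7 CPM at P25, with no UMI in 18 cells at 8 weeks, and the part of free RNA in the fall was not tested.

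**Figure D4:**
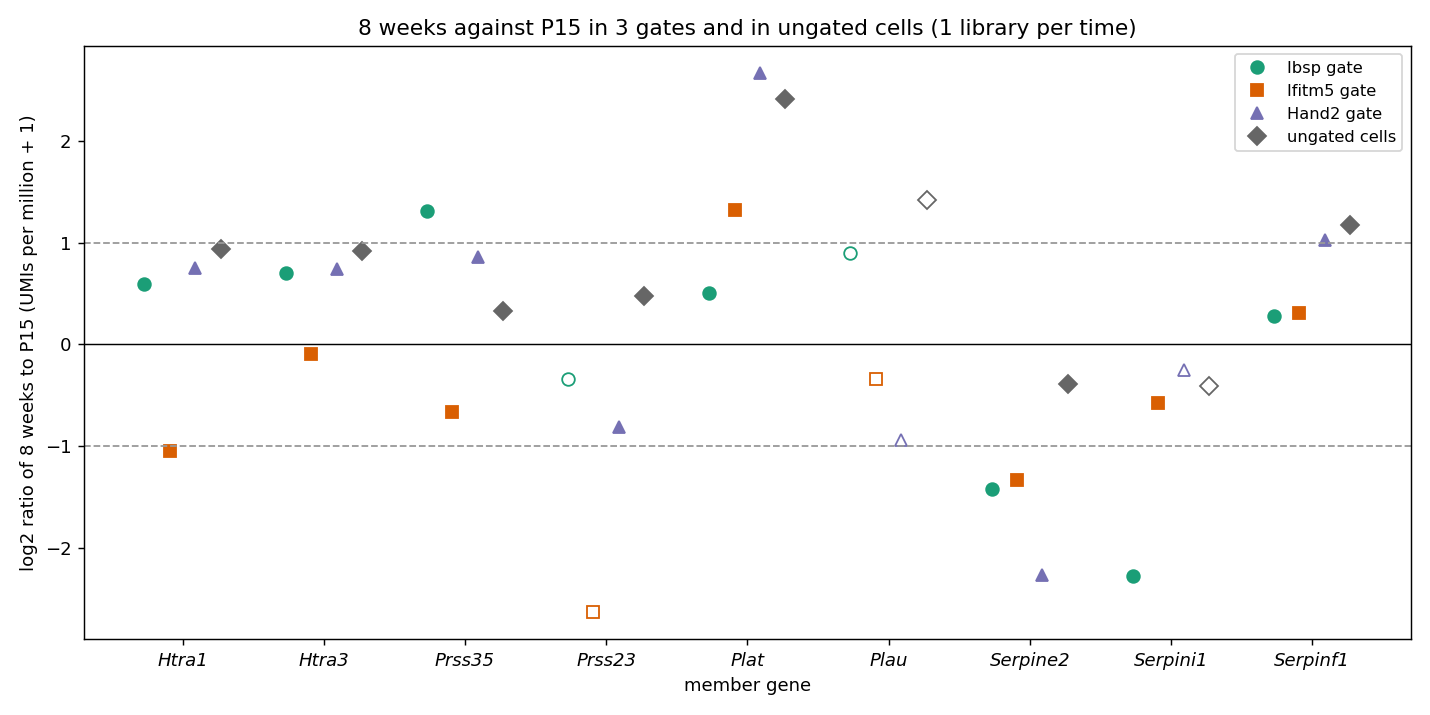
Log2 ratio of the 8-week to the P15 level (CPM + 1; y axis) for each member (x axis) in *Ibsp*-gated (circles), *Ifitm5*-gated (squares), *Hand2*-gated (triangles) and ungated cells (diamonds), from 1 library per age; dashed lines mark 2-fold and open symbols pairs under 20 CPM at both ages. *Plat* lies above 0 and *Serpine2* below 0 in all 4 groups.

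The step from P15 to P25 and that from P25 to 8 weeks differed in the 3 gates. Some steps counted here had a level of 20 CPM or more at a single age and could be counted only as higher there. These were both steps of *Serpini1* and the second of *Htra1* in *Ifitm5*-gated cells, and the first of *Plat* and *Prss23* in *Hand2*-gated cells. In the *Ibsp* gate *Htra1* was higher at P25 (2.62% of all genes were) and *Serpini1* lower (2.85%), and by 8 weeks *Htra1* and *Serpine2* were lower than at P25 (1.48%) and no member higher (0.716%). Among the *Ibsp*-gated cells without *Hand2*, *Serpine2* alone was lower from P25 to 8 weeks, where 1.66% of all genes were. In *Ifitm5*-gated cells *Serpinf1* was 2.05 times higher at P25 (2.01 to 2.09), where 2.56% of all genes were, and *Serpini1* 3.62-fold lower (3.15 to 4.16), where 3.39% were. *Serpini1* then rose again 2.40-fold to 8 weeks (1.93 to 2.96), where 2.37% of all genes were higher, but in the *Ifitm5*-gated cells with *Ibsp*, 317 of 785 at P25 and 163 of 264 at 8 weeks, the step was 1.51-fold (1.21 to 1.87) and not counted. In the whole gate *Htra1* fell 3.93-fold (3.04 to 5.17), where 2.18% were lower. Its P25 level there was less than 2-fold above the *Ptprc*-gated level. The part of free RNA in this fall was not tested. In *Hand2*-gated cells *Htra1*, *Plat* and *Serpinf1* were higher at P25 (4.69%) and *Prss23* lower (2.79%), and from P25 to 8 weeks *Serpine2* alone was lower (2.13%) and none higher (0.82%). *Plat* in the *Hand2* gate thus made most of its rise, 5.80-fold (4.27 to 8.07), before P25. That rise started at 10.1 CPM, less than 2-fold above the *Ptprc*-gated 5.13 CPM at P15.

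In the *Mmp3* gate *Prss23* and *Plat* were higher and *Plau* and *Serpine2* lower at 8 weeks, where 12.4% and 11.3% of all genes were. *Prss23* was 6.17 times higher (4.28 to 9.09). In the *Rgs5* gate *Htra3*, *Plat* and *Serpinf1* were higher, where 14.1% of all genes were, and *Htra1*, *Prss23*, *Serpine2* and *Serpini1* lower, where 16.5% were. The *Htra3* ratio rested on 8 UMIs at 8 weeks and turned from 1.01 to -1.03 (log2) with the gate at 5%. *Serpinf1* there went from 395 to 2394 CPM, the reverse of *Serpine2*, from 1690 to 98.7 CPM. The shares of all genes were larger in both gates than in the *Ibsp*, *Ifitm5* and *Hand2* gates. At 8 weeks the *Mmp3* sum held only 445834 UMIs from 31 cells and the *Rgs5* sum 202583 UMIs from 30 cells. The *Ibsp* sum held 7458242 UMIs. The shares therefore cannot tell a wider change from counting error in small sums, and the part of counting error was not tested.

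In ungated cells 5 of 7 members were at least 2-fold higher at P25 than at P15 (*Htra1*, *Htra3*, *Plat*, *Serpine2* and *Serpinf1*), where 3.93% of all genes were, and none was lower, where 2.34% were. From P25 to 8 weeks *Htra1* and *Serpine2* fell 2.58-fold (2.51 to 2.64) and 2.98-fold (2.89 to 3.07), where 2.74% of all genes were lower, and no member was higher, where 2.07% were. At 8 weeks *Plat* and *Serpinf1* still stood above P15, by 5.48-fold (5.24 to 5.72) and 2.26-fold (2.24 to 2.28), where 4.65% were higher, and no member was lower, where 2.87% were. The share of cells that passed the *Itgbl1* gate moved in the same order, 7.06, 16.9 and 7.16% of all cells, and within those cells *Htra1* also rose 3.70-fold (3.61 to 3.79) to P25. The part of the cell share in the ungated change was not tested.

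A list of 50 further genes of the system was kept by role, and all 50 were found. Plasminogen itself, *Plg*, was at 0 CPM in all 8 gates of each library and near 0 in ungated cells. The urokinase receptor gene *Plaur* stood highest in *Ptprc*-gated cells at P25 and 8 weeks (91.9 and 133 CPM, the latter in 18 cells) and stood at 209 CPM there at P15, next to 203 CPM in the *Mmp3* gate. In the *Mmp3* gate it was 71.6 CPM at P25 and 17.9 CPM at 8 weeks. *S100a10*, whose protein binds plasminogen at the cell surface, was higher in the *Mmp3* gate than in ungated cells in all 3 libraries (1218, 1592 and 2032 against 421, 561 and 429 CPM). It was the only one of 22 listed genes passing the filter, a count near the share of all genes, 3.66%.

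Among 20 listed genes that passed between the *Ibsp* and *Ifitm5* gates, 3 were higher in the *Ibsp* gate and none lower, beside 1.2% and 1.48% of all genes. *F2r*, the thrombin receptor, stood at 88.2, 180 and 204 against 37.5, 21.9 and 48.9 CPM. *C1s1*, a complement protease, stood at 25.7, 119 and 184 against 11.4, 25.7 and 72.7 CPM. *Hgf*, a growth factor with an inactive protease domain, stood at 18.0, 17.5 and 27.9 against 5.94, 3.59 and 9.05 CPM, and *Ptprc*-gated cells held more of it at P15 (25.9 CPM). *Hgf* passed the filter through the *Ibsp* gate alone, so it could be counted only as higher there. Over time in the *Ibsp* gate, *C1s1*, *C1ra* and *F2r* were higher at 8 weeks than at P15, of 21 that passed, where 2.48% of all genes were. Of the same 21, 2 were lower, where 2.73% of all genes were, among them *Serpinb8*, at 41.0, 8.77 and 10.5 CPM. *Serpinb8* passed the filter through P15 alone. *Serpinh1*, a collagen chaperone of the serpin fold, stood at 1940, 2318 and 1786 CPM in *Ibsp*-gated cells against 256 and 272 CPM in *Ptprc*-gated cells at P15 and P25. The immune proteases *Elane* and *Prtn3* were lower than in *Ptprc*-gated cells in all 6 mesenchymal gates, where 14.6 to 19.8% of all genes were. No immune protease passed the filter in the comparisons without the *Ptprc* gate, so their direction follows from the filter and is a description.

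The genes most like each member were ranked by the correlation of log2 levels over 24 sums of gate and library, among 6354 genes, where the sums share libraries and the ranking is a description. *Htra1* was nearest to *Cpxm2* (r = 0.92) and *Col18a1* (0.89), and *Serpine2* to *Egflam* (0.94), *Col4a2* (0.93) and *Col4a1* (0.92). *Col18a1*, *Col4a1* and *Col4a2* encode basement membrane collagens. *Serpinf1* was nearest to *Bgn* (0.97), the gene of the proteoglycan biglycan, and *Htra3* to *Hspg2* (0.96), the gene of perlecan. *Serpini1* was nearest to *Pdgfa* (0.84), *Prss35* to *Tmtc2* (0.91), *Prss23* to *Sned1* (0.89), *Plat* to *Pkd1* (0.95) and *Plau* to *Chchd10* (0.89). Among the members, r ran from -0.71 (*Prss35* with *Plau*) to 0.88 (*Plat* with *Serpinf1*), and *Htra1* with *Serpine2* had 0.81. *Plat* and *Serpini1*, which were raised in the same split of *Ifitm5*-gated cells, had 0.47 over all sums.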

How the data were processed

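Single-cell 3' libraries (10x, v3.1 chemistry) of sorted mCherry+ cells were analysed from the deposited gene by cell matrices, in which the authors gave whole UMI counts per gene. Per the file headers, Cell Ranger 6.1.2 made the P15 and 8-week matrices and 6.0.1 the P25 matrix, against a larger gene list (32293 genes against 22056), and the labels name mm10. The 3 matrices were joined by gene identifier, and gene positions are those of the mouse annotation on GRCm38. Gates followed a fixed precedence (*Ifitm5*, *Ibsp*, *Rgs5*, *Mmp3*, *Pappa2*, *Hand2*), and 40, 28 and 0 cells that passed *Ptprc* or *Epcam* with another gate were left out. No doublet caller was run. UMIs were summed per gate and library and divided by the total over shared genes. Intervals are exact (Poisson, Clopper-Pearson, or conditional binomial for ratios). No test was run, and the steps were tested on simulated data. The members and lists were chosen with earlier results of these data known; the genes named are the members and, from the list, those that were called or stand at a named step of the pathway. Alternatives covered the gate threshold, filter, pseudocount, scaling, deepest cells and each library. Python 3.11.15, numpy 2.4.6, scipy 1.17.1, pandas 2.3.3 and, for scaling, R 4.3.3 with edgeR 4.0.16 were used. The number of mice and the authors' cell annotation were not used here. One gene of the pathway list is not reported here.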

Additional observations from a re-analysis of the deposited data

Results flagged for a closer look

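Between the *Ibsp* and *Ifitm5* gates, 4 members changed direction with age, and these differences between ages were not tested. *Prss35* had log2 ratios of -0.73, 0.28 and 1.23 in order of age. At P25 its level in *Ibsp*-gated cells without *Hand2* was 102 CPM, against 106 CPM in the *Ifitm5* gate. *Serpini1* had log2 ratios of 0.78, 0.74 and -0.92. *Serpinf1* had 0.049 at P15 and -0.66 at P25. *Prss23*, which was under 20 CPM in both gates, had -0.34, 0.66 and 1.95. From P15 to 8 weeks *Prss23* moved in opposite directions in the *Mmp3* gate (2.60) and the *Rgs5* gate (-1.85), whose markers both fell over the same time.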

How the results depend on the processing

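Each age is 1 library, and the *Mmp3* and *Rgs5* gates rest on few cells. Gates were compared within each library, but no paired analysis of the ages was possible because there is 1 library per age. The results come from no test. The 54 member values were compared with their alternatives 639 times: 569 stayed close, 69 moved and 1 reversed, the 8-week to P15 ratio of *Htra3* in the *Rgs5* gate, 1.01 as given and -1.03 with the gate at 5%. Close meant within the SD over the 3 libraries for a gate ratio, and within the counting interval for an age ratio. The 54 comparisons with a minimum of 10 cells and the 36 without the 8-week *Mmp3* and *Rgs5* gates could not change a value. They stayed close by construction. The sign changed in 18 comparisons, most of them of ratios near 0, and thinning to 3000 UMIs moved 19 values while 26 stayed close. The count of members higher in the *Ibsp* than in the *Ifitm5* gate was 0, but 1 with the gate at 5% and 2 when cells of several mesenchymal gates were left out; leaving out each library in turn gave 0 to 1. Pairs higher at 8 weeks numbered 14 with a minimum of 10 cells, and pairs lower 7 with the gate at 20%. Without the 8-week *Mmp3* and *Rgs5* gates, a setting chosen after seeing the data, they numbered 4 and 5. Pairs above background ranged from 28 (without P15) to 39 (without P25). The cell minimum decides which gates enter these counts. A minimum of 10 cells admits the 8-week *Pappa2* gate of 13 cells. Without P15 the *Rgs5* gate, with 17 cells at P25, drops out of the pairs above background. The cause of the other changes was not tested. Scaling by TMM moved the median gene between the *Ibsp* and *Ifitm5* gates from 0.17 to -0.00, and the shares of all genes higher and lower there to 1.03 and 1.75%.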
